A study of Homo sapiens with 16 samples.

Results

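The HOX cluster genes are the transcription factor genes of the 4 human HOX clusters, taken as every row of the deposited gene table whose symbol is HOXA, HOXB, HOXC or HOXD followed by a number. The rule found 39 genes of 58219, and all 39 are members: 11 in HOXA, 10 in HOXB, 9 in HOXC and 9 in HOXD. The study used PANC-1, an established human pancreatic cancer cell line labelled as epithelial cancer cells with wild-type genotype, and RNA was sequenced in 16 libraries, 2 in each of 8 groups. The groups were cells given siRNA against FLASH (the gene CASP8AP2), NPAT or SLBP and treated with TGFb, the same 3 siRNAs without TGFb, and non-transfected cells with and without TGFb. TGFb was given at 100 ng/ml for 48 h. The design text says that the roles of the 3 proteins in the epithelial to mesenchymal transition, or EMT, were the question. FLASH, NPAT and SLBP serve the synthesis and processing of replication-dependent histone mRNA. The labels call the non-transfected cells Mock and do not say whether they received transfection reagent, and no group with a non-targeting siRNA was analysed here, so an siRNA group differs from its control by the target and by transfection, which cannot be told apart. Cells were collected on day 3 by the sample titles, but 4 days after transfection by the design text. The labels number the repeats 1 and 2 and do not say what a repeat shares, so p-values measure the spread between these libraries, which may be technical.

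HOX proteins bind DNA through a homeodomain, often with PBX, MEIS and PKNOX cofactors, and give cells their position along the body axis. Within a cluster the genes lie in the order of their paralog numbers, and low numbers are used towards the head and early, high numbers towards the tail and late. Polycomb proteins keep unused clusters silent, Trithorax proteins keep used ones active, and retinoic acid is a classical inducer of the low-numbered genes. Differentiated and cancer cells keep part of the pattern of their origin.

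On GRCh38 with GENCODE release 29 HOXA lies on the minus strand of chromosome 7, and the other clusters span chr17:48528526-48729178 (HOXB, minus strand, 201 kb), chr12:53938765-54056030 (HOXC, plus strand, 117 kb) and chr2:176092891-176190907 (HOXD, plus strand, 98 kb). Neighbouring HOX genes share exons. HOXD10 shares 16.8% of its exonic bases with HOXD11 on the same strand, HOXD11 shares 21.4% with HOXD10, HOXC4 shares 17.8% with HOXC6, and HOXC5 shares 59.9% with a further gene model of the same name. Antisense genes overlap others: 31.1% of the exonic bases of HOXA11 lie opposite HOXA11-AS, 15.4% of those of HOXA3 opposite HOXA-AS2 and 58.1% of those of HOXD1 opposite another transcript. HOXD4 shares 80.5% with a read-through transcript. The library kit marks strand, but whether the counting used it is not given in the sources used here, so reads of these overlapping genes may have been divided between them.

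The promoters of 4 genes are shown because their transcripts carried the results below: HOXD10, HOXD11 and HOXC4 for TGFb and HOXA2 for the siRNAs. Each is the RefSeq window on GRCh38.p14, 300 bases long, from 250 bases before the start of the gene, 5′ to 3′ on its own strand. The RefSeq starts of HOXD10, HOXD11 and HOXA2 lie inside the GENCODE genes given below, which begin further upstream. Capitals mark the CCAAT box, written CCAAT or, on the other strand, ATTGG. The same window is listed for HOXC5 as for HOXC4.
HOXD10 (chr2:176116528-176116827, plus strand): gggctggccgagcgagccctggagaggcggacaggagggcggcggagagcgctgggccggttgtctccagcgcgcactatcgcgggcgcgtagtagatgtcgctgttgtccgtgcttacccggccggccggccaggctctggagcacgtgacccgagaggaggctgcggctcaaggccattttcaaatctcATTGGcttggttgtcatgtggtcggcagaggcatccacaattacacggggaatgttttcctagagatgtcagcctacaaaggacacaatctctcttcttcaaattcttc
HOXD11 (chr2:176107030-176107329, plus strand): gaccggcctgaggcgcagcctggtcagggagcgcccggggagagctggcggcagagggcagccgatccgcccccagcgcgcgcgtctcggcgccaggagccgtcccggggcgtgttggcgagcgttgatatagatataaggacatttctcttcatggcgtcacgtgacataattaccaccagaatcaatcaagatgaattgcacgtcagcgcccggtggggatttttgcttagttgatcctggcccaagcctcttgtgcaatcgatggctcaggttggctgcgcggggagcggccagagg
HOXC4 (chr12:54016638-54016937, plus strand): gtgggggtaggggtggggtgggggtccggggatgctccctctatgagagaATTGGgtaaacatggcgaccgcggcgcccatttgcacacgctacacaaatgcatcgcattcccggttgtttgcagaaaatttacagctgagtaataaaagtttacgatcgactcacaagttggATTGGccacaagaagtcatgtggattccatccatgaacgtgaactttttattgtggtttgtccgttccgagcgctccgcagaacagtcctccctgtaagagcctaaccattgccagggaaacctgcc
HOXA2 (chr7:27102634-27102933, minus strand): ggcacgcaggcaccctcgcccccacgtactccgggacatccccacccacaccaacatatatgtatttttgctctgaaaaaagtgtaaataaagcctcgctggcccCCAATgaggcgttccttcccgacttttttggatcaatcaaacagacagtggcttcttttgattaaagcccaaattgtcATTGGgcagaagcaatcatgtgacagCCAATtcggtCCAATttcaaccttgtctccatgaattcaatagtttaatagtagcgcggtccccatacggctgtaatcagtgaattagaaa
The window of HOXA2 held 4 CCAAT boxes, that of HOXC4 2, that of HOXD10 1 and that of HOXD11 none. RefSeq windows were matched for 20 of the 39 genes, 27 windows in all because HOXA3 has 7 and HOXA10 has 2. They cover only HOXB1 of HOXB, and HOXC4 and HOXC5, with 1 shared window, of HOXC, so the counts are mostly of HOXA and HOXD. Shares over all promoters are per window, so they are set beside counts of windows, where the shared window is counted for both genes. At least 1 CCAAT box stood in 18 of 27 windows (17 of the 20 genes), against 34.6% of 35116 promoters of the same length. The SMAD box CAGAC (or its reverse complement GTCTG) is the half-site to which SMAD3 and SMAD4 bind downstream of TGFb. It stood in 11 of 27 windows (6 of the 20 genes), against 45.3% of all promoters. The SMAD box was found once in HOXA2 and not in the windows of HOXD10, HOXD11 and HOXC4. The E-box CAGGTG (or CACCTG), a motif of SNAI and ZEB repressors, stood in 1 of 27 windows (1 of the 20 genes), against 20.6%. All 3 motifs were searched on both strands, and none of the 3 contains another. These are matches of letters, not binding sites.

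Libraries held 23.8 to 30.8 M expected counts, mitochondrial genes took 6.96 to 13.2% of counts, and log2 CPM of paired libraries within a group correlated between 0.9807 and 0.9906. The targeted mRNAs were lower in all 6 comparisons: after FLASH siRNA 21% of CASP8AP2 was left with TGFb and 20.5% without it, 12.7% and 10.7% of NPAT after NPAT siRNA, and 6.5% and 5.77% of SLBP after SLBP siRNA. Epithelial markers summed to 770 to 1770 TPM in siRNA libraries and 774 to 1280 TPM in non-transfected ones, led by the keratins KRT8 and KRT18. The other listed epithelial markers were lower over the 16 libraries. KRT19 ran from 49.6 to 304 TPM, EPCAM from 25.3 to 147 TPM, KRT7 from 5.6 to 25 TPM and CDH1 from 0.96 to 14.3 TPM. Markers of other cell types were low, and their highest sums were in siRNA libraries. The 3 endothelial markers summed to 0.33 to 6.43 TPM in siRNA libraries, against 0 to 0.03 TPM in non-transfected ones, with VWF reaching 6.08 TPM. The summed ranges of the other cell types overlapped between siRNA and non-transfected libraries. The 3 fibroblast and stellate cell markers summed to 0.18 to 8.41 TPM, against 0 to 0.39 TPM, with LUM reaching 7.34 TPM. The 4 leukocyte markers summed to 0.47 to 3.43 TPM, against 0.22 to 0.59 TPM, acinar markers reached 0.47 TPM in siRNA libraries and 0.12 TPM in non-transfected ones, and of the endocrine markers INS was at 0 in every library. The part of these markers in the siRNA results was not tested.

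**Figure D1:**
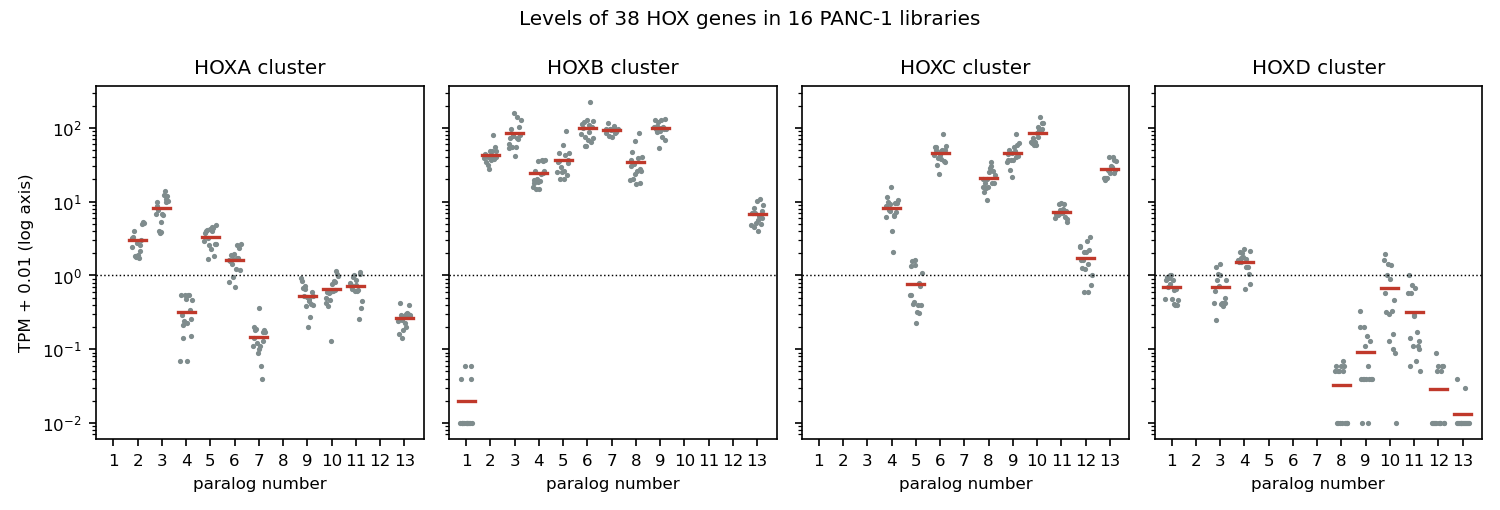
TPM of 38 HOX genes (log axis, 0.01 added) by paralog number, in 1 panel per cluster; grey points are the 16 libraries, red bars the means and the dotted line 1 TPM. The means of HOXB2 to HOXB9 and of 5 HOXC genes lie above 10 TPM, the HOXA means at numbers 2 and 3 lie above those at 9 to 13, and HOXD means stay close to or under 1 TPM.

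PANC-1 cells carried mostly HOXB and HOXC transcripts. Levels between genes are compared in TPM, which is corrected for transcript length, as mean ± SD over the 16 libraries. The HOXB cluster made up 60.9 to 70.8% of the summed HOX TPM of a library. HOXB9 stood at 99.5 ± 21.9 TPM, HOXB6 at 99.5 ± 40.9 TPM, HOXB7 at 93.6 ± 10.2 TPM, HOXC10 at 85.3 ± 25 TPM and HOXB3 at 84.2 ± 33.8 TPM. These 5 means lay within each other's SD and their order is not resolved. Next came HOXC6 at 46.1 ± 13.4 TPM, HOXC9 at 45.2 ± 14.8 TPM and HOXB2 at 43.6 ± 11.8 TPM, again within each other's spread. In all, 13 of 39 genes averaged at least 10 TPM and 23 at least 1 TPM.

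Levels ran differently along each cluster. In HOXA, HOXA2 averaged 3 ± 1.26 TPM and HOXA3 8.28 ± 3.2 TPM, and the 4 genes numbered 9 to 13 averaged 0.257 to 0.716 TPM. In HOXB every gene from HOXB2 to HOXB9 averaged over 20 TPM, whereas HOXB1 averaged 0.01 TPM. HOXB13, a gene used in prostate and lying far from the rest of its cluster, averaged 6.74 ± 2.02 TPM. The HOXC genes with high numbers were also used: HOXC13, which drives hair keratin genes, averaged 27.9 ± 7.02 TPM, and HOXC12 1.72 ± 0.823 TPM. HOXD was the least used cluster, and its highest gene, HOXD4, averaged 1.54 ± 0.466 TPM. HOXA4, HOXA7, HOXB1, HOXD8, HOXD9, HOXD12 and HOXD13 had too few counts to be tested, which left 32 members. HOXD13 had a mean of 0.00313 TPM, and its absence cannot be shown at this depth.

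Levels summed over the genes of HOXB overlapped between every siRNA group and its control, for example 522 and 878 TPM after SLBP siRNA and 449 and 628 TPM in non-transfected cells. HOXD sums with TGFb were 4.93 and 6.36 TPM after FLASH siRNA, 5.17 and 6.41 TPM after NPAT siRNA and 3.3 and 4.79 TPM after SLBP siRNA, against 2.45 and 2.85 TPM in non-transfected cells. These sums were not tested. In bulk RNA, fewer cells that use a gene and less RNA per cell cannot be told apart.

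**Figure D2:**
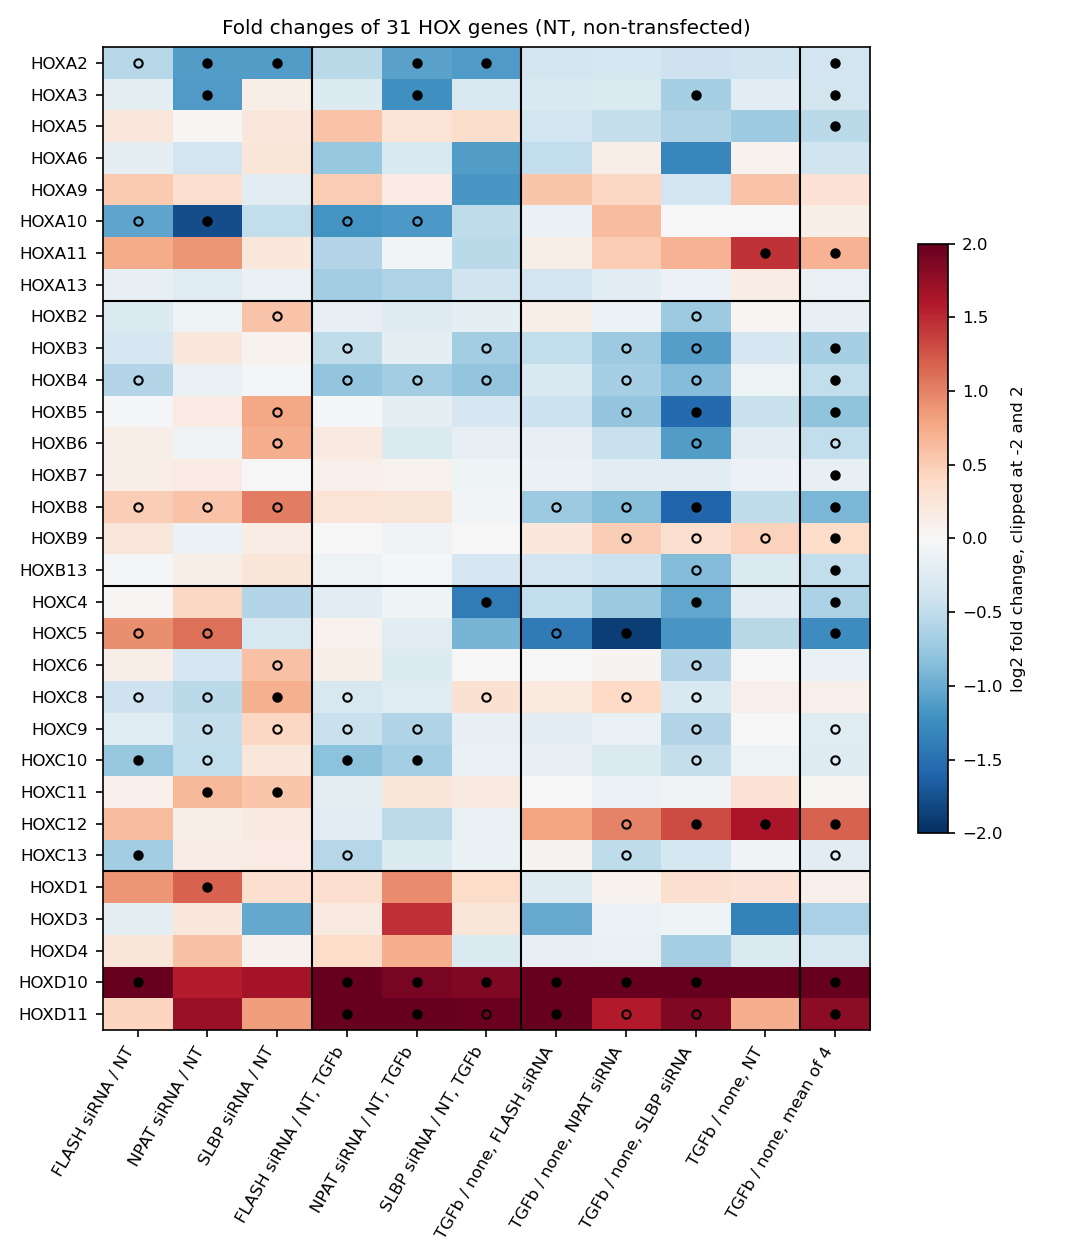
Log2 fold changes (colour, clipped at -2 and 2) of 31 HOX genes tested, in rows by cluster, over 10 comparisons of 2 groups and the mean of the 4 TGFb comparisons, in columns. Filled dots are genes past an adjusted p of 0.05, open dots are genes past it only when the repeat number is a term of the fit. HOXD10 is red in every column, HOXA2 is blue after every siRNA, and the column of the TGFb mean is blue from HOXB3 to HOXB8 and palest at HOXB7.

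Few HOX genes passed the test after the siRNAs. Tests were edgeR quasi-likelihood tests over 17743 genes with Benjamini-Hochberg adjustment, and a gene is called at an adjusted p under 0.05. Changes are log2 fold changes, given with the SE of the fit. Without TGFb, FLASH siRNA called 3 of 32 members (33.8% of all genes tested were called), NPAT siRNA 6 (32.3%) and SLBP siRNA 3 (25.9%). With TGFb, FLASH siRNA called 3 (26.6%), NPAT siRNA 5 (24.1%) and SLBP siRNA 3 (19.9%). All these shares lie below the background of the same comparison. The median log2 fold change of the 32 members without TGFb was 0.01 after FLASH siRNA, 0.12 after NPAT siRNA and 0.19 after SLBP siRNA, beside 0.04, 0.06 and 0.05 over all genes tested. With TGFb it was -0.13, -0.20 and -0.16, beside 0.01, 0.02 and 0.02. Libraries with the same repeat number deviated together, and with the repeat as a term the counts without TGFb became 9 (45.6% of all genes), 11 (44.7%) and 9 (39.1%), and with TGFb 9 (38.5%), 8 (37.8%) and 7 (32.2%). Every gene called without that term was called with it too.

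HOXA2 and HOXA3 fell after NPAT siRNA. HOXA2 (ENSG00000105996.6, chr7:27100354-27102811), a gene of hindbrain and branchial arch patterning in mouse, fell after NPAT and SLBP siRNA. Without TGFb it was at 3.76 and 4.53 CPM after FLASH siRNA, 2.38 and 3.31 CPM after NPAT siRNA and 3.06 and 2.61 CPM after SLBP siRNA, against 6.32 and 6.02 CPM in non-transfected cells. With TGFb it was at 2.81 and 3.6 CPM after FLASH siRNA, 2.32 and 2.14 CPM after NPAT siRNA and 2.29 and 1.95 CPM after SLBP siRNA, against 3.69 and 5.64 CPM in non-transfected cells. The NPAT and SLBP libraries lay under the non-transfected ones in both settings, and the FLASH libraries did as well. After NPAT siRNA the log2 fold change was -1.12 ± 0.25 (SE; adjusted p = 0.0053) without TGFb, and -1.07 ± 0.25 (SE; adjusted p = 0.01) with it. After SLBP siRNA it was -1.12 ± 0.25 (SE; adjusted p = 0.0068) without TGFb, and -1.14 ± 0.26 (SE; adjusted p = 0.0087) with it. After FLASH siRNA it was -0.57 ± 0.24 (SE; adjusted p = 0.088) without TGFb, which misses the threshold and passes it with the repeat as a term (adjusted p = 0.044). The NPAT call without TGFb held without each library in turn. With TGFb it was lost without non-transfected with TGFb repeat 2 or NPAT siRNA with TGFb repeat 2 (adjusted p 0.081 to 0.12). After SLBP siRNA the call without TGFb was lost without SLBP siRNA repeat 2 (adjusted p 0.051), and that with TGFb without non-transfected with TGFb repeat 2 or SLBP siRNA with TGFb repeat 2 (adjusted p 0.084 to 0.11).

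HOXA3 (ENSG00000105997.22, chr7:27106184-27152581), needed for the thymus and parathyroid in mouse, fell after NPAT siRNA. Its levels without TGFb were 15.2 and 13.1 CPM after FLASH siRNA, 6.37 and 8.15 CPM after NPAT siRNA and 16.8 and 18.4 CPM after SLBP siRNA, against 16.3 and 15.7 CPM in non-transfected cells. Under TGFb they were 10.2 and 12.7 CPM after FLASH siRNA, 6.37 and 5.52 CPM after NPAT siRNA and 10.5 and 11.7 CPM after SLBP siRNA, against 12.6 and 15.2 CPM in non-transfected cells. The NPAT libraries were the lowest in both settings and overlapped no other group. The fold change after NPAT siRNA was -1.14 ± 0.17 (SE; adjusted p = 0.00061) without TGFb, and -1.22 ± 0.17 (SE; adjusted p = 0.00064) with it, and both calls held without each library in turn. Set against NPAT siRNA, FLASH siRNA cells had more HOXA3 by 0.96 ± 0.17 (SE; adjusted p = 0.0026) without TGFb, and by 0.95 ± 0.17 (SE; adjusted p = 0.0048) with it. NPAT against SLBP siRNA gave -1.27 ± 0.17 (SE; adjusted p = 0.00051) without TGFb, and -0.90 ± 0.17 (SE; adjusted p = 0.0059) with it. Both comparisons without TGFb held in every fit that left out 1 library, whereas those with TGFb were lost without FLASH siRNA with TGFb repeat 2 or NPAT siRNA with TGFb repeat 2 (adjusted p 0.064 to 0.072) for FLASH and without SLBP siRNA with TGFb repeat 2 or NPAT siRNA with TGFb repeat 2 (adjusted p 0.057 to 0.077) for SLBP.

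HOXA10 (ENSG00000253293.4, chr7:27170591-27180261), a gene of the uterus and the myeloid lineage, was low. It stood at 0.549 and 0.405 CPM after FLASH siRNA, 0.415 and 0.158 CPM after NPAT siRNA and 0.913 and 0.494 CPM after SLBP siRNA, against 1.07 and 0.914 CPM in non-transfected cells, without TGFb, and at 0.529 and 0.33 CPM after FLASH siRNA, 0.579 and 0.334 CPM after NPAT siRNA and 0.869 and 0.529 CPM after SLBP siRNA, against 1.03 and 0.97 CPM in non-transfected cells, with it. After NPAT siRNA and without TGFb it fell by 1.77 ± 0.50 (SE; adjusted p = 0.018), a call that did not hold without non-transfected repeat 1 or NPAT siRNA repeat 2 (adjusted p 0.078 to 0.13).

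In HOXC 5 genes were called after an siRNA, HOXC10 and HOXC11 after more than 1 of them. HOXC10 (ENSG00000180818.4, chr12:53985065-53990279), a gene of hindlimb level motor neurons in mouse and the highest of the cluster, fell after FLASH siRNA. It stood at 60.4 and 71.7 CPM after FLASH siRNA, 66.6 and 92.3 CPM after NPAT siRNA and 101 and 159 CPM after SLBP siRNA, against 102 and 121 CPM in non-transfected cells, without TGFb. Its levels with TGFb were 59.1 and 58.7 CPM after FLASH siRNA, 58.5 and 71.4 CPM after NPAT siRNA and 85.7 and 101 CPM after SLBP siRNA, against 94.5 and 112 CPM in non-transfected cells. The FLASH libraries lay under the non-transfected ones in both settings, as did the NPAT libraries. The log2 fold change after FLASH siRNA was -0.76 ± 0.21 (SE; adjusted p = 0.016) without TGFb, and -0.81 ± 0.21 (SE; adjusted p = 0.013) with it. After NPAT siRNA it was -0.49 ± 0.21 (SE; adjusted p = 0.093) without TGFb, a call only with the repeat as a term (adjusted p = 0.0041), and -0.67 ± 0.21 (SE; adjusted p = 0.036) with it. The FLASH call without TGFb was lost without non-transfected repeat 2 or FLASH siRNA repeat 1 (adjusted p 0.095 to 0.096), and that with TGFb without non-transfected with TGFb repeat 2, FLASH siRNA with TGFb repeat 1 or FLASH siRNA with TGFb repeat 2 (adjusted p 0.06 to 0.1). The NPAT call with TGFb was lost without any 1 of the 4 libraries (adjusted p 0.066 to 0.2).

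HOXC13 (ENSG00000123364.4, chr12:53938765-53946544) had 29.7 and 33 CPM after FLASH siRNA, 46.6 and 65.6 CPM after NPAT siRNA and 47.1 and 66.2 CPM after SLBP siRNA, against 44 and 57 CPM in non-transfected cells, without TGFb. Under TGFb it had 33.5 and 31.8 CPM after FLASH siRNA, 35.5 and 43.8 CPM after NPAT siRNA and 40.9 and 47.4 CPM after SLBP siRNA, against 40.7 and 55.8 CPM in non-transfected cells. After FLASH siRNA alone the groups did not overlap in either setting, and the log2 fold change was -0.69 ± 0.22 (SE; adjusted p = 0.027) without TGFb, and -0.56 ± 0.22 (SE; adjusted p = 0.073) with it, where it passed with the repeat as a term (0.0039). The call on HOXC13 was lost without non-transfected repeat 2, FLASH siRNA repeat 1 or FLASH siRNA repeat 2 (adjusted p 0.074 to 0.18). HOXC8 (ENSG00000037965.5, chr12:54009106-54012362), a gene of the thoracic level in mouse, was higher after SLBP siRNA. Its levels without TGFb were 15.9 and 21.4 CPM after FLASH siRNA, 14.6 and 19.6 CPM after NPAT siRNA and 37.4 and 43.2 CPM after SLBP siRNA, against 21.7 and 27.8 CPM in non-transfected cells. With TGFb its levels were 19.2 and 23.4 CPM after FLASH siRNA, 19.8 and 25 CPM after NPAT siRNA and 32 and 33.3 CPM after SLBP siRNA, against 23 and 30.0 CPM in non-transfected cells. SLBP libraries lay above all others in both settings, with a fold change of 0.70 ± 0.21 (SE; adjusted p = 0.025) without TGFb, and 0.30 ± 0.21 (SE; adjusted p = 0.33) with it, where it passed with the repeat as a term (0.03). The call on HOXC8 was lost without non-transfected repeat 1 or SLBP siRNA repeat 2 (adjusted p 0.13 to 0.22). FLASH against SLBP siRNA gave -1.11 ± 0.21 (SE; adjusted p = 0.0027), and NPAT against SLBP siRNA gave -1.24 ± 0.21 (SE; adjusted p = 0.002), both without TGFb and both held without each library in turn.

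HOXC11 (ENSG00000123388.4, chr12:53973126-53977643) was at 9.68 and 9.76 CPM after FLASH siRNA, 13.2 and 15.5 CPM after NPAT siRNA and 11.5 and 15.2 CPM after SLBP siRNA, against 9.53 and 8.61 CPM in non-transfected cells, without TGFb. Levels with TGFb were 9.85 and 9.55 CPM after FLASH siRNA, 11.5 and 14.8 CPM after NPAT siRNA and 12.5 and 12.8 CPM after SLBP siRNA, against 10.8 and 11.4 CPM in non-transfected cells. Without TGFb it rose by 0.66 ± 0.17 (SE; adjusted p = 0.01) after NPAT siRNA, and by 0.56 ± 0.17 (SE; adjusted p = 0.028) after SLBP siRNA. The NPAT call was lost without non-transfected repeat 2 or NPAT siRNA repeat 2 (adjusted p 0.067 to 0.073) and the SLBP call without the filter on low counts (adjusted p = 0.071) and without non-transfected repeat 1, non-transfected repeat 2 or SLBP siRNA repeat 2 (adjusted p 0.097 to 0.22). HOXC4 (ENSG00000198353.7, chr12:54016931-54056030) had 10.8 and 9.1 CPM after FLASH siRNA, 10.6 and 15.4 CPM after NPAT siRNA and 6.46 and 6.56 CPM after SLBP siRNA, against 9.36 and 10.1 CPM in non-transfected cells, without TGFb, and 8.2 and 5.91 CPM after FLASH siRNA, 7.98 and 7.59 CPM after NPAT siRNA and 4.27 and 2.04 CPM after SLBP siRNA, against 10.0 and 6.58 CPM in non-transfected cells, with it. Under TGFb the SLBP libraries were the lowest, and the fold change there was -1.39 ± 0.32 (SE; adjusted p = 0.0093). The call on HOXC4 was lost without non-transfected with TGFb repeat 1 or SLBP siRNA with TGFb repeat 2 (adjusted p 0.083 to 0.089).

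HOXB genes gave no call after any siRNA against non-transfected cells in the fit with the filter on low counts, all 16 libraries and no repeat term. With the repeat as a term HOXB4 and HOXB8 passed in several comparisons, in opposite directions. HOXB4, which expands blood stem cells, was at 39.2 and 47.1 CPM after FLASH siRNA, 40.6 and 52.1 CPM after NPAT siRNA and 39.7 and 47 CPM after SLBP siRNA, against 64.6 and 85.2 CPM in non-transfected cells, with TGFb. Without TGFb it was at 43.6 and 63.5 CPM after FLASH siRNA, 53.2 and 93.8 CPM after NPAT siRNA and 61.5 and 96.6 CPM after SLBP siRNA, against 67.9 and 93.5 CPM in non-transfected cells. With TGFb the libraries of all 3 siRNAs lay under both non-transfected ones. The log2 fold changes there were -0.80 ± 0.30 (SE) after FLASH, -0.69 ± 0.30 after NPAT and -0.79 ± 0.30 after SLBP siRNA. Their adjusted p was 0.065, 0.11 and 0.08, and 0.00026, 0.00086 and 0.00043 with the repeat as a term, in the same order of siRNAs. HOXB8, a gene of myeloid progenitors, had log2 fold changes without TGFb of 0.49 ± 0.42 (SE) after FLASH, 0.57 ± 0.42 after NPAT and 1.02 ± 0.42 after SLBP siRNA. It passed after all 3 with the repeat as a term (adjusted p 0.03, 0.031 and 0.00093) and after none without it (0.4, 0.33 and 0.092).

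Some members passed with the repeat as a term and not without it, in edgeR fits with the filter on low counts and all 16 libraries. They are given here with their log2 fold change in the fit without that term and the adjusted p in the fit with it. After FLASH siRNA without TGFb, HOXB8 (0.49, 0.03) and HOXC5 (0.93, 0.044) were higher and HOXA2 (-0.57, 0.044), HOXA10 (-1.05, 0.027), HOXB4 (-0.59, 0.0014) and HOXC8 (-0.41, 0.006) were lower. After NPAT siRNA without TGFb, HOXB8 (0.57, 0.031) and HOXC5 (1.11, 0.019) were higher and HOXC8 (-0.54, 0.0012), HOXC9 (-0.48, 0.0029) and HOXC10 (-0.49, 0.0041) were lower. After SLBP siRNA without TGFb, HOXB2 (0.57, 0.0089), HOXB5 (0.78, 0.0064), HOXB6 (0.72, 0.005), HOXB8 (1.02, 0.00093), HOXC6 (0.58, 0.0057) and HOXC9 (0.42, 0.009) were higher. After FLASH siRNA with TGFb, HOXA10 (-1.20, 0.014), HOXB3 (-0.50, 0.048), HOXB4 (-0.80, 0.00026), HOXC8 (-0.32, 0.029), HOXC9 (-0.45, 0.0072) and HOXC13 (-0.56, 0.0039) were lower. After NPAT siRNA with TGFb, HOXA10 (-1.14, 0.021), HOXB4 (-0.69, 0.00086) and HOXC9 (-0.61, 0.0012) were lower. After SLBP siRNA with TGFb, HOXC8 (0.30, 0.03) and HOXD11 (1.97, 0.019) were higher and HOXB3 (-0.70, 0.01) and HOXB4 (-0.79, 0.00043) were lower.

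**Figure D3:**
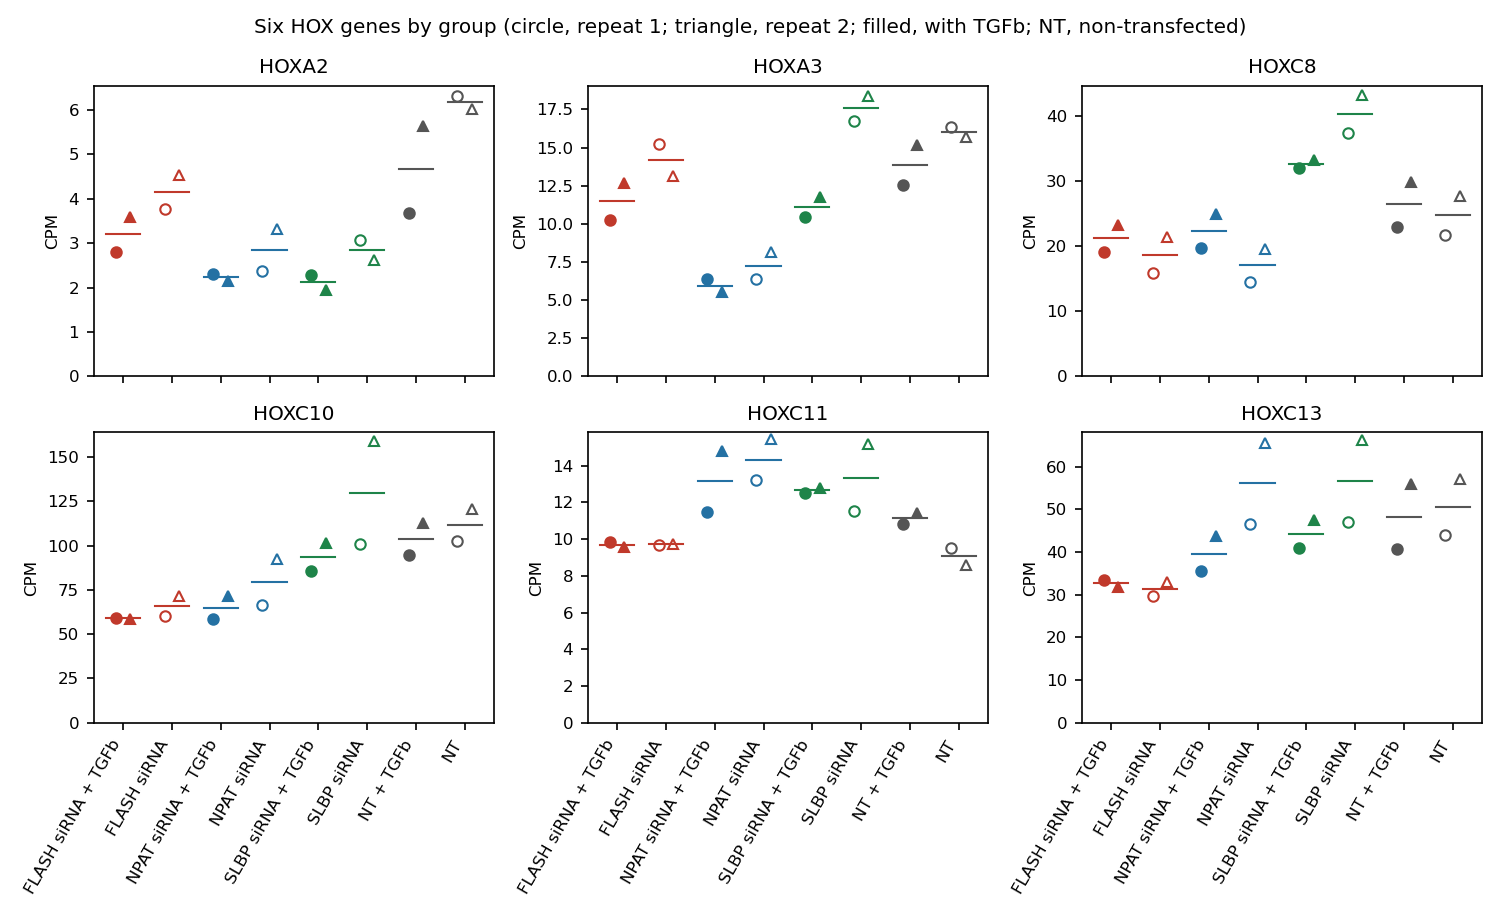
CPM of HOXA2, HOXA3, HOXC8, HOXC10, HOXC11 and HOXC13 in each library (circles, repeat 1; triangles, repeat 2; filled symbols, with TGFb; bars, group means). HOXA3 is lowest in the NPAT siRNA groups, HOXC8 is highest in the SLBP siRNA groups, and HOXC10 is lower in the FLASH siRNA groups than in non-transfected cells.

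With TGFb the siRNA libraries held more HOXD10 and HOXD11, genes of limb and posterior spinal cord patterning. HOXD10 (ENSG00000128710.5, chr2:176108790-176119942) had 0.47 and 0.221 CPM after FLASH siRNA, 0.226 and 0.118 CPM after NPAT siRNA and 0.261 and 0.106 CPM after SLBP siRNA, against 0.107 and 0 CPM in non-transfected cells, without TGFb. The 2 control libraries there held 3 and 0 counts. With TGFb it had 1.42 and 1.73 CPM after FLASH siRNA, 0.827 and 1.14 CPM after NPAT siRNA and 0.751 and 1.18 CPM after SLBP siRNA, against 0.198 and 0.323 CPM in non-transfected cells. With TGFb all siRNA libraries lay above both non-transfected ones, and without TGFb all did except SLBP siRNA repeat 2, at the level of non-transfected repeat 1. In summed counts the ratio with TGFb was 5.93 after FLASH siRNA, with a 95% exact binomial interval of 3.36 to 11.3, 3.78 (2.07 to 7.38) after NPAT siRNA and 3.65 (1.98 to 7.17) after SLBP siRNA. These intervals cover counting error only. Without TGFb the ratio was 6.18 after FLASH siRNA, with an interval of 1.81 to 32.8. Adjusted p values with TGFb were 0.0054 after FLASH, 0.033 after NPAT and 0.042 after SLBP siRNA. Without TGFb they were 0.036 after FLASH siRNA, a call, and 0.22 and 0.2 after NPAT and SLBP siRNA, which were not. The FLASH calls were lost without non-transfected with TGFb repeat 1 (adjusted p 0.054) with TGFb and without non-transfected repeat 2 or FLASH siRNA repeat 1 (adjusted p 0.17 to 0.23) without it, the NPAT call without any 1 of the 4 libraries (adjusted p 0.054 to 0.18) and the SLBP call without any 1 of the 4 libraries (adjusted p 0.054 to 0.24).

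HOXD11 (ENSG00000128713.13, chr2:176104216-176109754) had 0.463 and 0.844 CPM after FLASH siRNA, 0.496 and 0.669 CPM after NPAT siRNA and 0.237 and 0.529 CPM after SLBP siRNA, against 0.0793 and 0.108 CPM in non-transfected cells, with TGFb, and 0.0392 and 0.111 CPM after FLASH siRNA, 0.113 and 0.276 CPM after NPAT siRNA and 0.0652 and 0.141 CPM after SLBP siRNA, against 0.0714 and 0.0381 CPM in non-transfected cells, without it. Under TGFb the siRNA libraries lay above the non-transfected ones, whereas without TGFb the FLASH and SLBP libraries overlapped them and no siRNA was called. With TGFb the fold change was 2.73 ± 0.65 (SE; adjusted p = 0.0084) after FLASH siRNA, 2.58 ± 0.66 (SE; adjusted p = 0.015) after NPAT siRNA, and 1.97 ± 0.70 (SE; adjusted p = 0.067) after SLBP siRNA, which passed with the repeat as a term (0.019). The FLASH call was lost without non-transfected with TGFb repeat 1, non-transfected with TGFb repeat 2 or FLASH siRNA with TGFb repeat 2 (adjusted p 0.053 to 0.076) and the NPAT call without non-transfected with TGFb repeat 1, non-transfected with TGFb repeat 2 or NPAT siRNA with TGFb repeat 2 (adjusted p 0.081 to 0.093). HOXD1 (ENSG00000128645.14, chr2:176188579-176190907) was at 1.14 and 0.847 CPM after FLASH siRNA, 1.09 and 1.34 CPM after NPAT siRNA and 0.815 and 0.529 CPM after SLBP siRNA, against 0.5 and 0.571 CPM in non-transfected cells, without TGFb, and at 0.595 and 1.06 CPM after FLASH siRNA, 1.24 and 1.3 CPM after NPAT siRNA and 0.632 and 1.06 CPM after SLBP siRNA, against 0.515 and 0.79 CPM in non-transfected cells, with it. It rose by 1.18 ± 0.40 (SE; adjusted p = 0.04) after NPAT siRNA without TGFb, a call that did not hold without any 1 of the 4 libraries (adjusted p 0.065 to 0.19), with DESeq2 (adjusted p = 0.074) or without the filter on low counts (0.058). HOXD4 (ENSG00000170166.5, chr2:176151222-176153226), a gene of hindbrain and neck level patterning and the highest of its cluster, had 1.8 and 1.33 CPM after FLASH siRNA, 1.85 and 2.13 CPM after NPAT siRNA and 1.56 and 1.24 CPM after SLBP siRNA, against 0.714 and 1.94 CPM in non-transfected cells, without TGFb, and 1.45 and 1.32 CPM after FLASH siRNA, 1.7 and 1.87 CPM after NPAT siRNA and 0.632 and 1.14 CPM after SLBP siRNA, against 1.23 and 0.934 CPM in non-transfected cells, with it, and was not called in any comparison.

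Counts of called members moved with single libraries. For FLASH siRNA without TGFb the 3 calls became 1 without non-transfected repeat 2 or FLASH siRNA repeat 1. For NPAT siRNA without TGFb the 6 calls became 3 without NPAT siRNA repeat 2. For SLBP siRNA without TGFb the 3 calls became 0 without SLBP siRNA repeat 2 and 1 without non-transfected repeat 1 and 8 without SLBP siRNA repeat 1. For FLASH siRNA with TGFb the 3 calls became 1 without non-transfected with TGFb repeat 2 or FLASH siRNA with TGFb repeat 2. For NPAT siRNA with TGFb the 5 calls became 1 without non-transfected with TGFb repeat 2 or NPAT siRNA with TGFb repeat 2 and 2 without non-transfected with TGFb repeat 1 and 3 without NPAT siRNA with TGFb repeat 1. For SLBP siRNA with TGFb the 3 calls became 0 without SLBP siRNA with TGFb repeat 2 and 1 without non-transfected with TGFb repeat 1 or non-transfected with TGFb repeat 2. Between siRNAs without TGFb, FLASH against NPAT siRNA called 4 members (22.3% of all genes), FLASH against SLBP siRNA 4 (26.2%) and NPAT against SLBP siRNA 5 (16%). Under TGFb the counts were 1 (13.6%), 2 (13%) and 2 (12.4%). With the repeat as a term they were 8 (35.3%), 11 (39.1%) and 12 (27.7%) without TGFb and 4 (26.2%), 5 (25.5%) and 5 (23.6%) with it. For FLASH against NPAT siRNA without TGFb the 4 calls became 1 without NPAT siRNA repeat 2 and 2 without FLASH siRNA repeat 1 or FLASH siRNA repeat 2. For FLASH against SLBP siRNA without TGFb the 4 calls became 1 without FLASH siRNA repeat 1 and 2 without SLBP siRNA repeat 2 and 7 without SLBP siRNA repeat 1. For NPAT against SLBP siRNA without TGFb the 5 calls became 3 without NPAT siRNA repeat 1 and 8 without SLBP siRNA repeat 1. For FLASH against NPAT siRNA with TGFb the 1 call became 0 without FLASH siRNA with TGFb repeat 2 or NPAT siRNA with TGFb repeat 2. For FLASH against SLBP siRNA with TGFb the 2 calls became 0 without FLASH siRNA with TGFb repeat 1 or FLASH siRNA with TGFb repeat 2 and 1 without SLBP siRNA with TGFb repeat 1 or SLBP siRNA with TGFb repeat 2. For NPAT against SLBP siRNA with TGFb the 2 calls became 0 without SLBP siRNA with TGFb repeat 2 or NPAT siRNA with TGFb repeat 2 and 1 without NPAT siRNA with TGFb repeat 1. HOXB2 and HOXA9 were called in no other comparison: HOXB2 was lower in FLASH than in SLBP siRNA cells without TGFb (-0.84 ± 0.25 SE, adjusted p = 0.029), and HOXA9, a gene of blood progenitors, was higher in FLASH than in SLBP siRNA cells with TGFb (1.68 ± 0.51 SE, adjusted p = 0.047). The HOXB2 call was lost without FLASH siRNA repeat 1, FLASH siRNA repeat 2 or SLBP siRNA repeat 2 (adjusted p 0.064 to 0.26), and the HOXA9 call without FLASH siRNA with TGFb repeat 1, FLASH siRNA with TGFb repeat 2 or SLBP siRNA with TGFb repeat 1 (adjusted p 0.14 to 0.27), with DESeq2 (adjusted p = 0.13) and without the filter on low counts (0.079).

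In the mean over the 4 kinds of cells, many HOX genes with low paralog numbers fell with TGFb and some with high numbers rose. Within single kinds of cells few passed: 2 of 32 after FLASH siRNA (4.11% of all genes called), 2 after NPAT siRNA (5.33%), 6 after SLBP siRNA (12.6%) and 2 in non-transfected cells (6.18%). Of these calls 0, 1, 4 and 0 were decreases, in the same order. With the repeat as a term the counts were 4 (10.1%), 11 (12.2%), 18 (22.1%) and 4 (11.9%). The mean of the 4 TGFb effects, a comparison added after the data were seen, called 17 of 32 (29.1% of all genes), 5 higher (15.5%) and 12 lower (13.6%). Among genes numbered 1 to 8, 11 of 19 tested fell, none of them in HOXD, and none rose, with a median log2 fold change of -0.40. Among those numbered 9 to 13, 5 of 13 rose and 1 fell, with a median of 0.12, beside -0.02 over all genes. With the repeat as a term 21 members were called (39.3%): 12 of the 19 fell, and 5 of the 13 rose and 4 fell. The 17 calls became 12 without repeat 1 of non-transfected cells with TGFb, and of the 17, 11 held without each of the 16 libraries in turn.

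HOXD10 and HOXD11 rose with TGFb. HOXD10 was at 1.42 and 1.73 CPM with TGFb against 0.47 and 0.221 CPM without it after FLASH siRNA, and 0.827 and 1.14 against 0.226 and 0.118 CPM after NPAT siRNA. HOXD10 had 0.751 and 1.18 CPM with TGFb against 0.261 and 0.106 CPM after SLBP siRNA, and 0.198 and 0.323 against 0.107 and 0 CPM in non-transfected cells. In all 4 kinds of cells both TGFb libraries lay above both others. Its mean effect was 2.29 ± 0.34 (SE; adjusted p = 0.00026). HOXD11 was at 0.463 and 0.844 CPM with TGFb against 0.0392 and 0.111 CPM without it after FLASH siRNA, and 0.496 and 0.669 against 0.113 and 0.276 CPM after NPAT siRNA. HOXD11 had 0.237 and 0.529 CPM with TGFb against 0.0652 and 0.141 CPM after SLBP siRNA, and 0.0793 and 0.108 against 0.0714 and 0.0381 CPM in non-transfected cells. The groups did not overlap in any of the 4 kinds of cells, but in non-transfected cells they rested on very few counts. There HOXD11 had 2 and 3 counts with TGFb against 2 and 1 without it, a ratio of 1.7 with a counting interval of 0.332 to 11 (adjusted p = 0.8). The mean effect was 1.80 ± 0.38 (SE; adjusted p = 0.0035). Within FLASH siRNA cells both passed, HOXD10 at an adjusted p of 0.045 and HOXD11 at 0.026, and HOXD10 passed after NPAT siRNA (0.037) and SLBP siRNA (0.023). The HOXD10 calls were lost without any 1 of the 4 libraries (adjusted p 0.13 to 0.33) after FLASH, without any 1 of the 4 libraries (adjusted p 0.084 to 0.22) after NPAT and without SLBP siRNA repeat 2 or SLBP siRNA with TGFb repeat 2 (adjusted p 0.15) after SLBP siRNA, and the HOXD11 call without FLASH siRNA repeat 1, FLASH siRNA repeat 2 or FLASH siRNA with TGFb repeat 2 (adjusted p 0.11 to 0.26). Since the pair share exons, their reads are not independent.

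HOXC12 (ENSG00000123407.3, chr12:53954834-53958956), a gene of posterior limb and tail level, rose with TGFb. It was at 5.55 and 5.1 CPM with TGFb against 3.45 and 2.73 CPM without it after FLASH siRNA, and 3.89 and 4.68 against 1.47 and 2.83 CPM after NPAT siRNA. HOXC12 had 4.78 and 6.35 CPM with TGFb against 1.3 and 3.21 CPM after SLBP siRNA, and 5.15 and 7.12 against 1.68 and 2.29 CPM in non-transfected cells. Both TGFb libraries lay above both others in all 4 kinds of cells. The mean effect was 1.18 ± 0.19 (SE; adjusted p = 0.0006). It passed in SLBP siRNA cells (1.31 ± 0.39 SE, adjusted p = 0.044) and in non-transfected cells (1.63 ± 0.39 SE, adjusted p = 0.027). The call in SLBP siRNA cells was lost without SLBP siRNA repeat 1, SLBP siRNA with TGFb repeat 1 or SLBP siRNA with TGFb repeat 2 (adjusted p 0.077 to 0.22) and that in non-transfected cells without any 1 of the 4 libraries (adjusted p 0.059 to 0.22). HOXA11 (ENSG00000005073.5, chr7:27181510-27185223), a gene of forearm and kidney development, was at 1.06 and 0.955 CPM with TGFb against 0.98 and 0.884 CPM without it after FLASH siRNA, and 1.45 and 1.47 against 0.981 and 1.06 CPM after NPAT siRNA. HOXA11 had 1.26 and 0.814 CPM with TGFb against 0.88 and 0.388 CPM after SLBP siRNA, and 1.62 and 1.4 against 0.5 and 0.609 CPM in non-transfected cells. The groups did not overlap in NPAT siRNA and non-transfected cells. The mean effect was 0.69 ± 0.18 (SE; adjusted p = 0.012), and in non-transfected cells it was 1.44 ± 0.37 (SE; adjusted p = 0.037), a call that did not hold without any 1 of the 4 libraries (adjusted p 0.1 to 0.23). HOXB9 (ENSG00000170689.9, chr17:48621159-48626356), studied in breast cancer cells as a mediator of invasion, was at 175 and 211 CPM with TGFb against 156 and 177 CPM without it after FLASH siRNA, and 159 and 211 against 104 and 159 CPM after NPAT siRNA. HOXB9 had 179.6 and 211 CPM with TGFb against 131 and 182 CPM after SLBP siRNA, and 173 and 217 against 119 and 165 CPM in non-transfected cells. Its mean effect was 0.37 ± 0.12 (SE; adjusted p = 0.032). That call was lost without non-transfected repeat 1, FLASH siRNA repeat 1, SLBP siRNA repeat 1, NPAT siRNA repeat 1, non-transfected with TGFb repeat 2, FLASH siRNA with TGFb repeat 2, SLBP siRNA with TGFb repeat 2 or NPAT siRNA with TGFb repeat 2 (adjusted p 0.057 to 0.092).

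**Figure D4:**
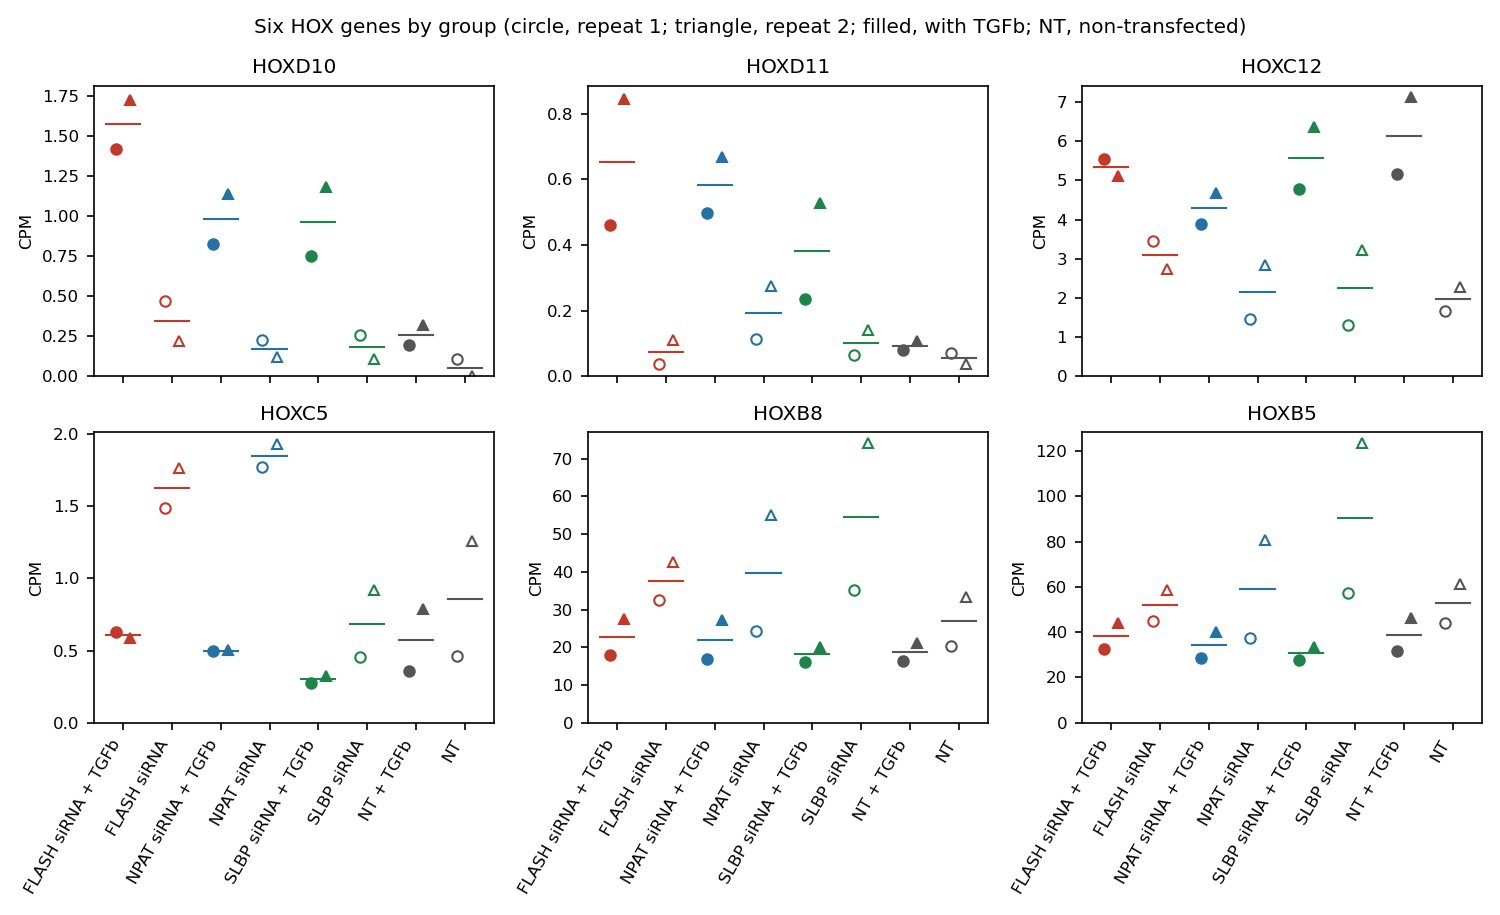
CPM of HOXD10, HOXD11, HOXC12, HOXC5, HOXB8 and HOXB5 in each library (circles, repeat 1; triangles, repeat 2; filled symbols, with TGFb; bars, group means). HOXD10, HOXD11 and HOXC12 are higher with TGFb in all 4 kinds of cells, HOXD11 only slightly in non-transfected cells, and the group means of HOXC5, HOXB8 and HOXB5 are lower.

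Of all members, HOXC5 had the largest decrease in the TGFb mean (ENSG00000172789.3, chr12:54032853-54035358). It was at 0.628 and 0.587 CPM with TGFb against 1.49 and 1.77 CPM without it after FLASH siRNA, and 0.496 and 0.501 against 1.77 and 1.93 CPM after NPAT siRNA. HOXC5 had 0.277 and 0.326 CPM with TGFb against 0.456 and 0.918 CPM after SLBP siRNA, and 0.357 and 0.79 against 0.464 and 1.26 CPM in non-transfected cells. The groups did not overlap after the 3 siRNAs and overlapped in non-transfected cells. The mean effect was -1.26 ± 0.25 (SE; adjusted p = 0.0023), and within NPAT siRNA cells it was -1.88 ± 0.48 (SE; adjusted p = 0.04), a call that did not hold without any 1 of the 4 libraries (adjusted p 0.089 to 0.2). HOXC4 was at 8.2 and 5.91 CPM with TGFb against 10.8 and 9.1 CPM without it after FLASH siRNA, and 7.98 and 7.59 against 10.6 and 15.4 CPM after NPAT siRNA. HOXC4 had 4.27 and 2.04 CPM with TGFb against 6.46 and 6.56 CPM after SLBP siRNA, and 10.0 and 6.58 against 9.36 and 10.1 CPM in non-transfected cells. It fell by 0.63 ± 0.15 (SE; adjusted p = 0.0078) in the mean and by 1.04 ± 0.32 (SE; adjusted p = 0.0497) in SLBP siRNA cells, where the call was lost without SLBP siRNA repeat 1, SLBP siRNA repeat 2 or SLBP siRNA with TGFb repeat 2 (adjusted p 0.082 to 0.31).

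Of the 9 HOXB genes tested, 6 fell and HOXB9 rose. HOXB8 (ENSG00000120068.6, chr17:48611377-48614939) was at 17.9 and 27.4 CPM with TGFb against 32.6 and 42.6 CPM without it after FLASH siRNA, and 16.9 and 27.2 against 24.4 and 55.1 CPM after NPAT siRNA. HOXB8 had 16.1 and 20.2 CPM with TGFb against 35.1 and 74 CPM after SLBP siRNA, and 16.3 and 21.2 against 20.4 and 33.2 CPM in non-transfected cells. HOXB5 (ENSG00000120075.5, chr17:48591257-48593961), a gene of lung and enteric nerve development, was at 32.8 and 44.1 CPM with TGFb against 44.9 and 58.8 CPM without it after FLASH siRNA, and 28.5 and 40.0 against 37.5 and 81 CPM after NPAT siRNA. HOXB5 had 27.8 and 33.6 CPM with TGFb against 57.5 and 124 CPM after SLBP siRNA, and 31.7 and 46.1 against 44.2 and 61.3 CPM in non-transfected cells. The TGFb libraries of both genes lay below the others after FLASH and SLBP siRNA and overlapped them after NPAT siRNA and in non-transfected cells. The mean effect was -0.92 ± 0.21 (SE; adjusted p = 0.0061) for HOXB8, and -0.80 ± 0.20 (SE; adjusted p = 0.0081) for HOXB5. In SLBP siRNA cells they were -1.59 ± 0.43 (SE; adjusted p = 0.03), and -1.56 ± 0.40 (SE; adjusted p = 0.021). Those calls were lost without SLBP siRNA repeat 2, SLBP siRNA with TGFb repeat 1 or SLBP siRNA with TGFb repeat 2 (adjusted p 0.11 to 0.25) for HOXB8 and without SLBP siRNA repeat 2, SLBP siRNA with TGFb repeat 1 or SLBP siRNA with TGFb repeat 2 (adjusted p 0.089 to 0.21) for HOXB5. The SLBP siRNA repeat 2 library without TGFb held the highest HOXB8 and HOXB5 of all 16.

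The other HOXB genes that fell in the mean were HOXB3 (-0.67 ± 0.17 SE, adjusted p = 0.01), HOXB4 (-0.49 ± 0.15 SE, adjusted p = 0.026), HOXB13 (-0.49 ± 0.17 SE, adjusted p = 0.048) and HOXB7 (-0.17 ± 0.05 SE, adjusted p = 0.02). The call on HOXB4 in the mean was lost without non-transfected repeat 2, FLASH siRNA repeat 2, SLBP siRNA repeat 2, NPAT siRNA repeat 2, non-transfected with TGFb repeat 1, FLASH siRNA with TGFb repeat 1, SLBP siRNA with TGFb repeat 1 or NPAT siRNA with TGFb repeat 1 (adjusted p 0.056 to 0.07). That on HOXB13 was lost without non-transfected repeat 2, FLASH siRNA repeat 1, FLASH siRNA repeat 2, SLBP siRNA repeat 2, NPAT siRNA repeat 2, non-transfected with TGFb repeat 1, FLASH siRNA with TGFb repeat 1, SLBP siRNA with TGFb repeat 1, SLBP siRNA with TGFb repeat 2 or NPAT siRNA with TGFb repeat 1 (adjusted p 0.057 to 0.12), and HOXB7 without the filter on low counts and without FLASH siRNA repeat 2, non-transfected with TGFb repeat 1, FLASH siRNA with TGFb repeat 1 or NPAT siRNA with TGFb repeat 1 (adjusted p 0.051 to 0.059). In HOXA, HOXA2 fell by 0.39 ± 0.13 (SE; adjusted p = 0.036), HOXA3 by 0.37 ± 0.08 (SE; adjusted p = 0.0062) and HOXA5, a lung and breast gene, by 0.54 ± 0.16 (SE; adjusted p = 0.02). These 3 genes had lower TGFb means in all 4 kinds of cells. In the mean the HOXA2 call was lost without the filter on low counts and without non-transfected repeat 1, non-transfected repeat 2, FLASH siRNA repeat 2, SLBP siRNA repeat 1, NPAT siRNA repeat 2, non-transfected with TGFb repeat 1, FLASH siRNA with TGFb repeat 1, SLBP siRNA with TGFb repeat 2, NPAT siRNA with TGFb repeat 1 or NPAT siRNA with TGFb repeat 2 (adjusted p 0.056 to 0.089), and HOXA5 without non-transfected repeat 2, NPAT siRNA repeat 2 or non-transfected with TGFb repeat 1 (adjusted p 0.0503 to 0.053). In SLBP siRNA cells HOXA3 fell by 0.66 ± 0.17 (SE; adjusted p = 0.021), a call that did not hold without SLBP siRNA repeat 2, SLBP siRNA with TGFb repeat 1 or SLBP siRNA with TGFb repeat 2 (adjusted p 0.068 to 0.15).

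Counts within single kinds of cells rested on single libraries. For FLASH siRNA cells the 2 calls became 0 without FLASH siRNA repeat 1 or FLASH siRNA repeat 2 or FLASH siRNA with TGFb repeat 2 and 1 without FLASH siRNA with TGFb repeat 1. For NPAT siRNA cells the 2 calls became 0 without NPAT siRNA repeat 1 or NPAT siRNA repeat 2 or NPAT siRNA with TGFb repeat 1 or NPAT siRNA with TGFb repeat 2. For SLBP siRNA cells the 6 calls became 0 without SLBP siRNA with TGFb repeat 2 and 1 without SLBP siRNA repeat 2 and 2 without SLBP siRNA with TGFb repeat 1 and 11 without SLBP siRNA repeat 1. For non-transfected cells the 2 calls became 0 without non-transfected repeat 1 or non-transfected repeat 2 or non-transfected with TGFb repeat 1 or non-transfected with TGFb repeat 2. Whether the siRNAs changed the TGFb effect was tested as an interaction against non-transfected cells. None of the 32 members passed with edgeR for FLASH (0.0845% of all genes called), NPAT (0.0451%) or SLBP siRNA (0.0225%), at an unadjusted p under 0.05 in 1, 0 and 0 members, and DESeq2 also called none. With the repeat as a term the calls stayed at 0 (0.147%, 0.113% and 0.13% of all genes), with 1, 3 and 12 members at an unadjusted p under 0.05. Without the filter on low counts, edgeR called 5 members for SLBP siRNA (0.843% of the 32163 genes then tested), all in HOXB and all with a TGFb effect lower than in non-transfected cells. They were HOXB3 (-0.75 ± 0.19, adjusted p = 0.012), HOXB4 (-0.74 ± 0.20, adjusted p = 0.033), HOXB5 (-1.09 ± 0.21, adjusted p = 6.8e-05), HOXB6 (-0.87 ± 0.19, adjusted p = 0.0015) and HOXB8 (-1.05 ± 0.23, adjusted p = 0.0017). With the filter, and without the repeat as a term, the SLBP interaction of the HOXB genes ranged from -1.12 to -0.105 and none passed. These 5 calls therefore depend on the filter. For the other members, and for FLASH and NPAT siRNA, a call in one kind of cell and not in another was not shown by any fit to be a difference between them. Within single kinds of cells, of the edgeR fits with the filter and all 16 libraries, these members passed only in that with the repeat as a term. In FLASH siRNA cells, HOXB8 (-0.73, 0.018) and HOXC5 (-1.42, 0.033) were lower. In NPAT siRNA cells, HOXB9 (0.50, 0.0038), HOXC8 (0.39, 0.025), HOXC12 (1.00, 0.048) and HOXD11 (1.58, 0.043) were higher and HOXB3 (-0.73, 0.02), HOXB4 (-0.66, 0.0039), HOXB5 (-0.79, 0.017), HOXB8 (-0.85, 0.011) and HOXC13 (-0.50, 0.018) were lower. In SLBP siRNA cells, HOXB9 (0.32, 0.028) and HOXD11 (1.86, 0.029) were higher and HOXB2 (-0.73, 0.0037), HOXB3 (-1.10, 0.00091), HOXB4 (-0.87, 0.00025), HOXB6 (-1.12, 0.00053), HOXB13 (-0.87, 0.0009), HOXC6 (-0.58, 0.012), HOXC8 (-0.30, 0.049), HOXC9 (-0.59, 0.0019) and HOXC10 (-0.47, 0.014) were lower. In non-transfected cells, HOXB9 (0.46, 0.0064) was higher. In the mean of the 4, HOXB6 (-0.49, 0.00067), HOXC9 (-0.24, 0.0051), HOXC10 (-0.26, 0.0044) and HOXC13 (-0.22, 0.015) were lower.

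HOXB genes differed between the repeats together. In the fit with the repeat as a term, 16 of 32 members differed between repeat 2 and repeat 1 (27.7% of all genes tested), 15 higher in repeat 2 (13.4%) and HOXA10 lower (14.3%). Of the 9 HOXB genes tested, 8 were higher in repeat 2 in all 8 groups, with HOXB7 the exception, against 7.71% of all genes tested. The cluster medians of the log2 difference were 0.50 for HOXB, 0.31 for HOXC, 0.13 for HOXD and 0.10 for HOXA. HOXB8 averaged 37.6 CPM over the 8 repeat 2 libraries and 22.5 CPM over the 8 repeat 1 libraries (0.68 ± 0.09 SE, adjusted p = 0.00041). For HOXB5 the mean was 61 CPM in repeat 2 and 38.1 CPM in repeat 1 (0.61 ± 0.09, adjusted p = 0.00075). The repeat differences of HOXC8, HOXC11 and HOXC13 were 0.31, 0.12 and 0.30. Each group holds 1 library of each repeat, so the size of these differences says nothing on the changes after the siRNAs. The comparison of repeats was also added after the data were seen.

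**Figure D5:**
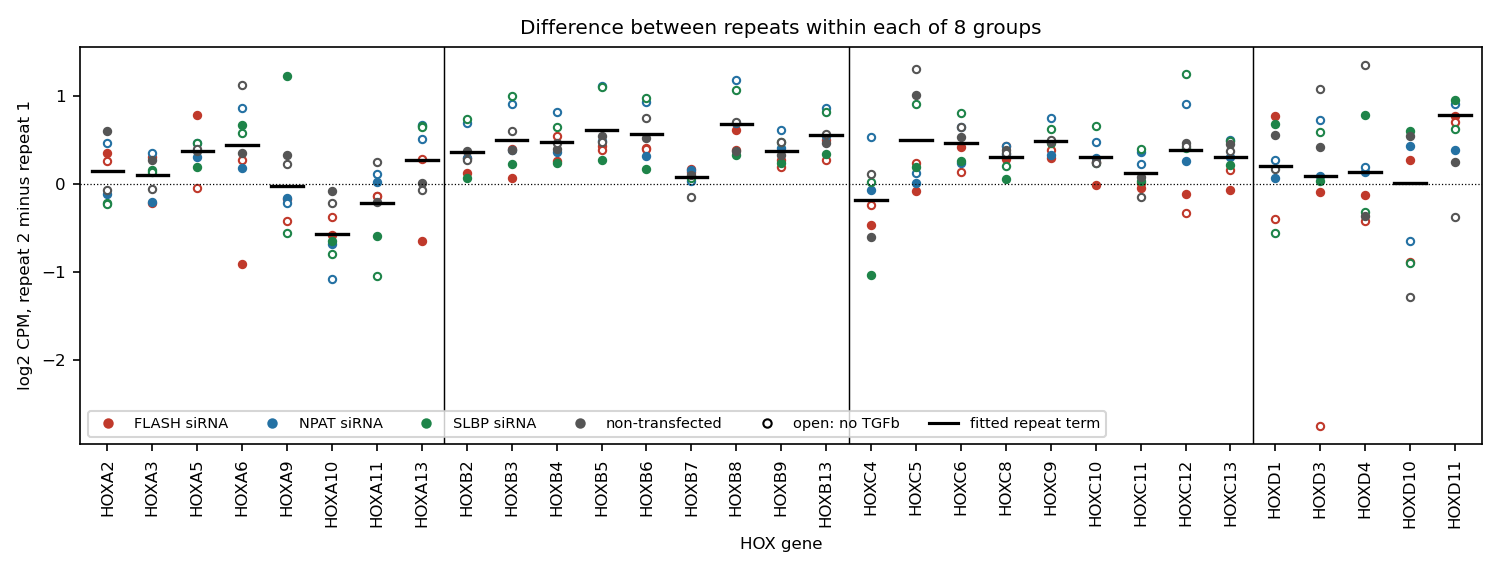
Log2 CPM of repeat 2 minus repeat 1 for 31 HOX genes tested, 1 point per group (colour, kind of cell; filled, with TGFb) and a black bar for the fitted repeat term. For 8 of the 9 HOXB genes all 8 points lie above 0, and HOXB7 sits near 0.

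Gene lists around the HOX clusters are read against the share of all genes tested. Of all genes, 20.8% rose and 12.9% fell after FLASH, 18.9% and 13.3% after NPAT and 15.1% and 10.8% after SLBP siRNA without TGFb. With TGFb these shares were 17.5% and 9.06%, 13.7% and 10.3%, and 12.3% and 7.6%. Counts with the repeat as a term follow the median where they differ by over 1.5 times.

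Of 20 noncoding RNAs of the HOX clusters listed, 18 were in the table and 12 could be tested. Of these 1 rose and 1 fell after FLASH siRNA without TGFb (median -0.04; 2 and 2 with the repeat), 1 rose and 4 fell after NPAT siRNA without TGFb (median -0.40; 2 and 4 with the repeat) and 1 rose and 0 fell after SLBP siRNA without TGFb (median 0.29; 5 and 0 with the repeat). Further, 0 rose and 2 fell after FLASH siRNA with TGFb (median -0.06; 1 and 2 with the repeat), 0 rose and 5 fell after NPAT siRNA with TGFb (median -0.58) and 0 rose and 1 fell after SLBP siRNA with TGFb (median -0.23; 0 and 3 with the repeat). 1 rose and 3 fell in the TGFb mean (median -0.12; 2 and 4 with the repeat). HOXB-AS1 fell without TGFb after NPAT siRNA, 1.07 against 2.63 CPM (-1.29 ± 0.32, adjusted p = 0.0089), and after FLASH siRNA, 0.889 against 2.63 CPM (-1.56 ± 0.32, adjusted p = 0.0029). HOXA11-AS rose after NPAT siRNA without TGFb, 0.903 against 0.33 CPM (1.44 ± 0.40, adjusted p = 0.018). Its summed counts without TGFb were alike after FLASH, NPAT and SLBP siRNA, at 43, 47 and 48, against 18 in non-transfected cells. In the TGFb mean HOXA-AS2 with 2.28 against 4.48 CPM (-0.98 ± 0.16, adjusted p = 0.00055), HOXB-AS3 with 2.35 against 4.16 CPM (-0.88 ± 0.12, adjusted p = 0.00011) and HOXC-AS3 with 2.11 against 2.9 CPM (-0.44 ± 0.14, adjusted p = 0.031) were lower, and HOXC13-AS with 8.2 against 5.81 CPM (0.53 ± 0.12, adjusted p = 0.0059) was higher. HOXA-AS2 lies opposite HOXA3, HOXA11-AS opposite HOXA11 and HOXB-AS3 opposite HOXB5 and HOXB6, so their reads and those of these members may be mixed.

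All 9 HOX cofactor genes listed were tested. Of these 3 rose and 1 fell after FLASH siRNA without TGFb (median 0.60; 4 and 2 with the repeat), 3 rose and 1 fell after NPAT siRNA without TGFb (median 0.25) and 3 rose and 0 fell after SLBP siRNA without TGFb (median 0.11; 4 and 1 with the repeat). Medians are of the log2 fold change, beside those over all genes given above. Further, 5 rose and 1 fell after FLASH siRNA with TGFb (median 0.89; 6 and 2 with the repeat), 3 rose and 1 fell after NPAT siRNA with TGFb (median 0.46) and 4 rose and 0 fell after SLBP siRNA with TGFb (median 0.47). 2 rose and 1 fell in the TGFb mean (median -0.06). Without TGFb MEIS3 rose after each siRNA: 27.8 against 8.26 CPM (1.75 ± 0.18, adjusted p = 3.4e-05) after FLASH, 23.6 against 8.26 CPM (1.52 ± 0.18, adjusted p = 0.00017) after NPAT and 21.9 against 8.26 CPM (1.41 ± 0.18, adjusted p = 0.00034) after SLBP siRNA. PKNOX1 rose as well, most after FLASH siRNA with 30.2 against 13.9 CPM (1.12 ± 0.13, adjusted p = 8.1e-05). PKNOX2 had 42, 8 and 11 counts in the FLASH, NPAT and SLBP groups and 0 in the 2 non-transfected libraries, which makes it at least 14.4-fold, 2.79-fold and 3.37-fold higher when the non-transfected group is set to the floor of 3 counts. Leaving PKNOX2 at these bounds did not change the medians. PBX3 fell after NPAT siRNA, 29.9 against 48.8 CPM (-0.71 ± 0.13, adjusted p = 0.0017). In the TGFb mean MEIS1 rose with 1.08 against 0.594 CPM (0.82 ± 0.20, adjusted p = 0.0081) and PBX3 with 53.4 against 39.8 CPM (0.42 ± 0.06, adjusted p = 0.00032), while PBX2 fell with 26.9 against 31.5 CPM (-0.22 ± 0.07, adjusted p = 0.027).

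Of the 28 Polycomb genes 1 rose and 9 fell after FLASH siRNA without TGFb (median -0.01; 6 and 11 with the repeat), 1 rose and 5 fell after NPAT siRNA without TGFb (median -0.14; 2 and 9 with the repeat) and 2 rose and 9 fell after SLBP siRNA without TGFb (median -0.21). Among the same 28, 1 rose and 10 fell after FLASH siRNA with TGFb (median -0.05; 2 and 10 with the repeat), 0 rose and 6 fell after NPAT siRNA with TGFb (median -0.15) and 1 rose and 4 fell after SLBP siRNA with TGFb (median -0.15; 1 and 9 with the repeat). 4 rose and 5 fell in the TGFb mean (median -0.01; 6 and 9 with the repeat). PHC1 fell after FLASH siRNA, 13.3 against 27 CPM (-1.02 ± 0.16, adjusted p = 0.00053), RNF2, a catalytic subunit of the complex that ubiquitinates histone H2A, after NPAT siRNA, 26.9 against 46.3 CPM (-0.78 ± 0.09, adjusted p = 0.00018), and CBX6 after SLBP siRNA, 62.8 against 188 CPM (-1.58 ± 0.10, adjusted p = 3.5e-06). Of the 18 Trithorax and activator genes 2 rose and 4 fell after FLASH siRNA without TGFb (median -0.12), 2 rose and 5 fell after NPAT siRNA without TGFb (median -0.13) and 1 rose and 4 fell after SLBP siRNA without TGFb (median -0.00). Among the same 18, 3 rose and 3 fell after FLASH siRNA with TGFb (median -0.14; 4 and 5 with the repeat), 3 rose and 3 fell after NPAT siRNA with TGFb (median -0.13; 3 and 6 with the repeat) and 2 rose and 2 fell after SLBP siRNA with TGFb (median -0.09; 3 and 5 with the repeat). 3 rose and 5 fell in the TGFb mean (median -0.08). KDM6B, a demethylase of the Polycomb mark, rose in the TGFb mean with 83.5 against 49.9 CPM (0.72 ± 0.06, adjusted p = 1.7e-06), and MLLT3 with 1.86 against 0.907 CPM (1.04 ± 0.21, adjusted p = 0.0026).

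Of 16 retinoic acid pathway genes tested, 7 rose and 2 fell after FLASH siRNA without TGFb (median 0.07), 8 rose and 1 fell after NPAT siRNA without TGFb (median 0.32) and 3 rose and 6 fell after SLBP siRNA without TGFb (median -0.09). Among the same 16, 6 rose and 2 fell after FLASH siRNA with TGFb (median 0.40), 4 rose and 2 fell after NPAT siRNA with TGFb (median 0.13) and 1 rose and 3 fell after SLBP siRNA with TGFb (median -0.13; 3 and 4 with the repeat). 6 rose and 2 fell in the TGFb mean (median 0.11). STRA6, the receptor of retinol-binding protein, had 6 summed counts in non-transfected cells without TGFb. It rose after FLASH siRNA with 1.21 against 0.11 CPM (3.39 ± 0.70, adjusted p = 0.0029) and after NPAT siRNA with 1.4 against 0.11 CPM (3.61 ± 0.69, adjusted p = 0.0024). RDH10, which makes retinal, and DHRS3, which reduces it, fell after SLBP siRNA with 4.02 against 11.1 CPM (-1.46 ± 0.16, adjusted p = 9.9e-05) and 13.7 against 28.9 CPM (-1.08 ± 0.21, adjusted p = 0.0036). ALDH1A1 went the other way after SLBP siRNA. Without TGFb it had 158 against 3 summed counts, a ratio of 48.4 with a counting interval of 16.3 to 237. With TGFb it had 423 against 16 summed counts, a ratio of 28.1 (17.1 to 49.7). In the TGFb mean CYP26B1, which degrades retinoic acid, rose with 73.2 against 31.5 CPM (1.25 ± 0.05, adjusted p = 4.6e-09), and CRABP2, which carries it to the nucleus, fell with 73.7 against 126 CPM (-0.89 ± 0.07, adjusted p = 7.7e-07). Of 8 ParaHox, CDX and EVX genes 3 could be tested, of which 0 rose and 0 fell after FLASH siRNA without TGFb (median 1.05; 1 and 0 with the repeat), 0 rose and 0 fell after NPAT siRNA without TGFb (median 0.44; 1 and 0 with the repeat) and 0 rose and 0 fell after SLBP siRNA without TGFb (median 1.15; 1 and 0 with the repeat). Among the same 3, 1 rose and 0 fell after FLASH siRNA with TGFb (median 0.93), 0 rose and 0 fell after NPAT siRNA with TGFb (median 0.40; 1 and 0 with the repeat) and 0 rose and 0 fell after SLBP siRNA with TGFb (median 0.03; 1 and 0 with the repeat). 1 rose and 1 fell in the TGFb mean (median -0.66; 1 and 2 with the repeat). CDX2, an intestinal regulator of HOX genes, fell in the TGFb mean with 1.42 against 2.34 CPM (-0.78 ± 0.20, adjusted p = 0.012). Of 18 tested neighbours outside the clusters 3 rose and 3 fell after FLASH siRNA without TGFb (median 0.09; 3 and 5 with the repeat), 2 rose and 3 fell after NPAT siRNA without TGFb (median -0.03) and 2 rose and 2 fell after SLBP siRNA without TGFb (median 0.06). For these neighbours, 3 rose and 2 fell after FLASH siRNA with TGFb (median -0.01), 1 rose and 3 fell after NPAT siRNA with TGFb (median -0.12) and 2 rose and 1 fell after SLBP siRNA with TGFb (median 0.03; 2 and 4 with the repeat). 2 rose and 3 fell in the TGFb mean (median -0.10; 3 and 6 with the repeat). TTLL6 beside HOXB, which has few counts in non-transfected cells, rose after FLASH siRNA with 4.73 against 0.28 CPM (4.07 ± 0.43, adjusted p = 3.8e-05) and after NPAT siRNA with 3.88 against 0.28 CPM (3.78 ± 0.44, adjusted p = 0.00013), without TGFb. Its summed counts there were 249, 201 and 87 after FLASH, NPAT and SLBP siRNA, against 15 in non-transfected cells. With TGFb they were 164, 87 and 73 in the same order, against 11. In these comparisons with non-transfected cells no HOXB gene passed in the fit with the filter on low counts and without the repeat as a term. CBX5 beside HOXC rose after FLASH siRNA with 367 against 216 CPM (0.77 ± 0.09, adjusted p = 7.4e-05) and fell after SLBP siRNA with 128 against 216 CPM (-0.75 ± 0.09, adjusted p = 0.00021).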

How the data were processed

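RNA of PANC-1 cells was sequenced after poly(A) selection with the TruSeq Stranded mRNA kit, per the labels' protocols. The submitters' processing notes name the aligner STAR 2.4.2a, the build GRCh38.p10 and the counter RSEM 1.2.31. The authors deposited expected counts per gene, which divide reads that map to several genes. They also deposited TPM, which correct for length and library size, and an effective length per gene, which served here only to check the order of levels by CPM per kb of length, per the file headers. A further 32 columns (length and FPKM) were not used. Expected counts were rounded to whole numbers. edgeR 4.0.16 (R 4.3.3) scaled libraries by the trimmed mean of M values, filterByExpr kept 17743 genes, and a quasi-likelihood model of all 16 libraries had a mean for each group, leaving 8 residual degrees of freedom (7 with the repeat). CPM values use these scaled library sizes. Log2 fold changes are given with their SE.

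Grouping followed the labels. Deviations from group means of same-numbered libraries correlated in all 28 pairs of groups (0.169 to 0.788, median 0.518, over 11588 genes). Same-numbered libraries were treated as paired only in the fit with the repeat as a term. The main fit left the repeat out, so its adjusted p values ignore this pairing. The pairing comes from the data, since no label says what a repeat shares. Alternatives were DESeq2 1.42.0 and its size factors, no filter on low counts, the repeat as a block, and each library left out. edgeR was tested on simulated data. Members and gene lists were chosen with earlier results of these data known. Values per library are given for each member called in an siRNA against non-transfected or a TGFb comparison within 1 kind of cells and for the highest gene of HOXB, HOXC and HOXD; of each list up to 4 called genes with the largest changes could be named. Genes were matched to GENCODE release 29 by identifier, and 3 members differed in version. Of the HOX genes, 1 enters the counts and medians but is not reported here by its values.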

Additional observations from a re-analysis of the deposited data

How the results depend on the processing

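Counts of called members changed most with the filter and with the repeat, and the cause was not tested. With the replicate block the counts without TGFb were 9 (FLASH), 11 (NPAT) and 9 (SLBP), and with TGFb 9, 8 and 7. For TGFb within FLASH, NPAT, SLBP siRNA and non-transfected cells the block gave 4, 11, 18 and 4. Between siRNAs it gave 8 (FLASH against NPAT), 11 (FLASH against SLBP) and 12 (NPAT against SLBP) without TGFb and 4, 5 and 5 with it. Without a filter on low counts, with 32163 genes tested, FLASH siRNA called 7 and SLBP siRNA 8 without TGFb, and FLASH, NPAT and SLBP siRNA 7, 8 and 5 with it. TGFb then called 5, 11, 14 and 4 in FLASH, NPAT, SLBP siRNA and non-transfected cells, the comparisons between siRNAs 7, 12 and 11 without TGFb and 2, 4 and 5 with it, and the SLBP interaction 5, the only interaction with a call. DESeq2 moved 1 count by over 1.5 times, TGFb in FLASH siRNA cells, to 1. DESeq2 size factors moved none, and the largest shift of a median log2 fold change was 0.02.

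Leaving out 1 library gave 1 to 3 calls for FLASH, 3 to 6 for NPAT and 0 to 8 for SLBP siRNA without TGFb, and 1 to 3, 1 to 3 and 0 to 2 with it. TGFb counts were 0 to 1 in FLASH, 0 to 0 in NPAT, 0 to 11 in SLBP siRNA and 0 to 0 in non-transfected cells, and 12 to 18 for the mean. The 3 interactions stayed at 0. Between siRNAs the ranges were 1 to 4, 1 to 7 and 3 to 8 without TGFb and 0 to 1, 0 to 1 and 0 to 2 with it. A group left with 1 library is assumed to vary like the others.

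For 70 calls on members no alternative reversed a direction. The block kept all 70, DESeq2 67 of the 69 it tested, the unfiltered fit 63, and 315 of 484 fits without 1 library kept the call. DESeq2 lost HOXD1 after NPAT siRNA (adjusted p = 0.074) and HOXA9 between FLASH and SLBP siRNA (0.13). The unfiltered fit lost both (0.058 and 0.079), HOXC11 after SLBP siRNA (0.071) and between FLASH and NPAT siRNA (0.054), HOXA2 (0.067) and HOXB7 (0.15) in the TGFb mean, and a call not reported here. Depth limits the HOXD genes, which rest on few counts.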
